A study of Mus musculus with 4 samples.

Results

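The 10 genes described here, *Lmcd1*, *Fjx1*, *Ptgfrn*, *Ppic*, *Ier3*, *Prom1*, *Esam*, *F11r*, *Cttnbp2nl* and *Glt1d1*, are genes that the study names when it describes thymocytes with little or no Ikaros. It names them as deregulated or as loci that depend on Ikaros for trimethylation of lysine 27 on histone H3 (H3K27me3). Their selection rests on what is said of thymocytes and not on a threshold in the array values, although earlier results of these data were known when they were chosen, and they are 10 of 19938 genes that could be named on the arrays. The question was whether they changed when a ligand-inducible Ikaros, placed in an Ikaros-null T-cell line, received its ligand. RNA came from ILC87-Ik1-ER cells, of which 2 samples received 4-hydroxytamoxifen (4OHT, 100 nM) and 2 the vehicle, ethanol (EtOH), each for 24 h, and was measured on 4 Affymetrix Gene ST 1.0 arrays. ILC87 is 1 cell line, from a thymic tumour of an Ikaros f/f Lck-cre+ mouse, in which the T-lineage *Lck* promoter drives the Cre recombinase. Its strain label is C57BL/6, whereas the study describes mice of this genotype as of mixed background, only in part C57BL/6. All 4 samples carry a retrovirus with full-length Ikaros-1 fused to the oestrogen receptor ligand-binding domain (Ik1-ER), followed by GFP, and GFP-positive cells were sorted to make the line. No array of 4OHT-treated cells without Ik1-ER was analysed here, so that an effect of 4OHT itself and one of Ik1-ER cannot be told apart.

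Ikaros is a zinc-finger DNA-binding protein of lymphoid cells that represses some genes and activates others. Polycomb repressive complex 2 (PRC2) places H3K27me3 on nucleosomes at silent genes, often those that other cell types or earlier stages use. Several of the genes here belong to such programmes: *Prom1*, *Esam*, *F11r* and *Ier3* are known from haematopoietic stem and progenitor cells, and *Lmcd1* and *Fjx1* from a Notch response that thymocytes show without Ikaros.

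Of the 10 genes, *Lmcd1*, *Ppic* and *Ptgfrn* fell after 4OHT, by 2.26-fold to 10.1-fold, and none rose. The call was a Benjamini-Hochberg adjusted p under 0.05 from limma, adjusted over all 35556 probe sets. Among all named genes 2.99% were called lower and 1.23% higher, and among all probe sets 2.17% and 0.987%. The other 7 did not pass the test, although 3 of them, *Fjx1*, *Ier3* and *Cttnbp2nl*, had an unadjusted p under 0.05, all towards lower levels, and no gene of the 10 had one towards higher levels. Of all named genes, 11.7% had an unadjusted p under 0.05 towards lower and 8.74% towards higher levels. The median log2 fold change (4OHT over EtOH) of the 10 genes was −0.49, that of all named genes 0.03. The 5 genes whose EtOH and 4OHT means both lay below every array median did not pass, nor did *Fjx1* and *Cttnbp2nl*, whose EtOH means lay above it.

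**Figure D1:**
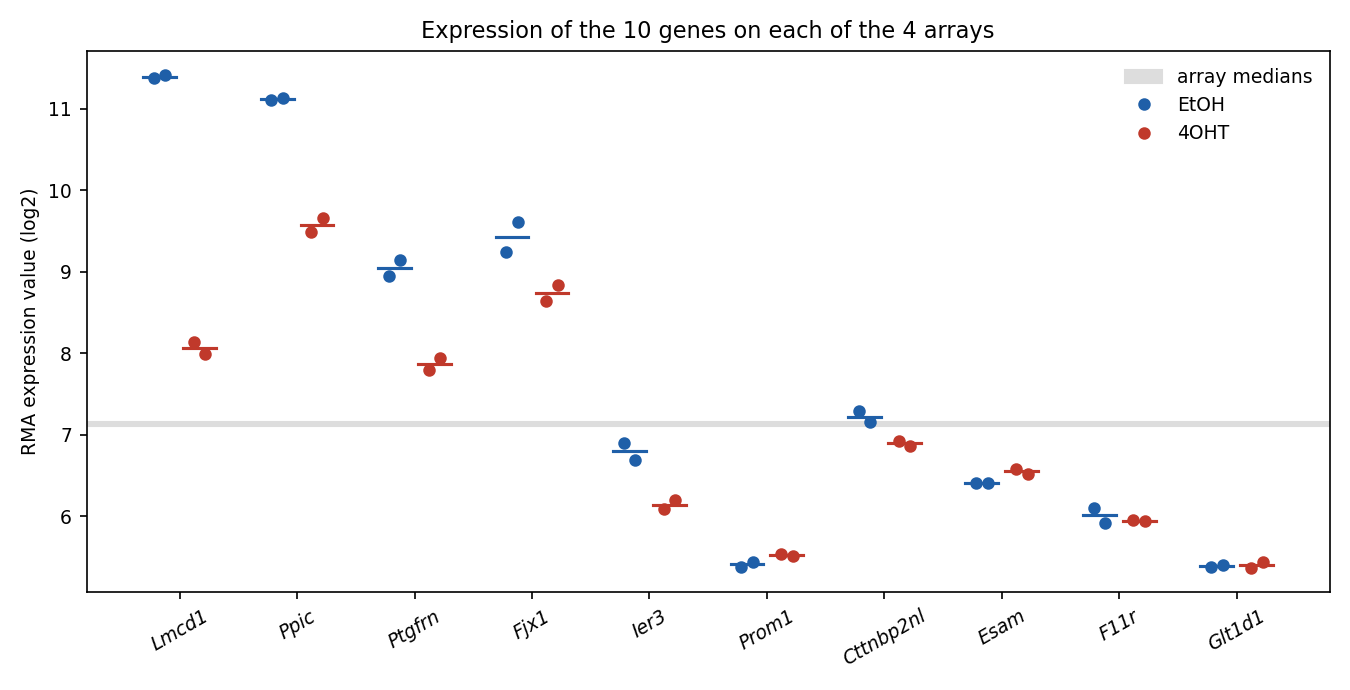
RMA expression values (log2, vertical axis) of the 10 genes on all 4 arrays. Each array is a point (blue EtOH, red 4OHT), short lines are the means of 2 arrays, and the grey band spans the array medians (7.11 to 7.16); the 4OHT points of *Lmcd1* lie 3.24 below its EtOH points, while those of *F11r* and *Glt1d1* overlap.

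The values are the deposited RMA values, in log2 units, of 1 probe set per gene. RMA subtracts background, brings the arrays to 1 distribution and summarises probes. The values compare 1 gene between arrays and do not rank the genes by their amount of mRNA. No detection calls were given, and whether a dim gene was expressed at all could not be judged. Nothing says that the samples of a treatment came from separate cultures, and p-values then describe the variation among these 4 samples alone, possibly just technical. With 2 arrays a treatment, the smallest two-sided p that an exact permutation test allows is 0.333. The 10 measured T-cell marker genes had EtOH means of 8.09 to 13.3 and 4OHT means of 9.41 to 13.0. Of these, *Cd3d* fell (log2 fold change −0.94, limma adjusted p = 0.0172), *Cd5* rose (1.32, limma adjusted p = 0.0104), and 7 of the other 8 had an unadjusted p under 0.05, so that genes of the line's own cell type moved in both directions. The part of these genes in the other results was not tested. The measured markers of B cells (7 genes), myeloid cells (8), erythroid cells (3), megakaryocytes (4) and stem and progenitor cells (8) had EtOH means of at most 7.45. Of the myeloid markers, *Itgam* rose (log2 fold change 0.68) and *Lyz2* fell (−1.24), and their part in the other results was not tested; the list as a whole spanned means of 5.07 to 6.80 with EtOH and 5.18 to 7.27 with 4OHT. *Ikzf1*, the Ikaros gene, had values of 12.76 and 12.79 with EtOH and 12.91 and 12.78 with 4OHT. Whether the *Ikzf1* probes also detect Ik1-ER mRNA is not stated.

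*Lmcd1* and *Fjx1* are the genes of the Notch-related group. *Lmcd1* encodes a cytoplasmic and nuclear protein with PET and LIM domains (dyxin), known to restrain the transcription factor GATA6. Its values were 11.38 and 11.41 on the EtOH arrays and 8.14 and 7.99 on the 4OHT arrays. The groups were far apart, with 3.24 between the nearest arrays of the 2 treatments, against 0.029 between the EtOH arrays and 0.15 between the 4OHT arrays. The level thus fell 10.1-fold (log2 fold change −3.33, standard error 0.085, 95% interval −3.55 to −3.11, limma adjusted p = 0.00417), the third of all named genes by size of decrease. Both 4OHT values remained above the array medians.

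The 250 bases before the *Lmcd1* start in RefSeq (chr6:112273508-112273757, build GRCm38.p6, plus strand) are shown because this gene changed most, with AGGAA, the motif of Ikaros sites, in capitals (TTCCT where it lies on the other strand).
*Lmcd1*: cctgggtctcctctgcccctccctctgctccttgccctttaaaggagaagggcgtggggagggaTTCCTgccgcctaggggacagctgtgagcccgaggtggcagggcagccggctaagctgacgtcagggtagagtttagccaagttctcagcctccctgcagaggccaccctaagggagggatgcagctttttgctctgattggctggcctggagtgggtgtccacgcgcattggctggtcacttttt
The *Lmcd1* window holds the motif in 1 place. Of all 32851 promoter windows of 300 bases in the RefSeq table (250 before to 50 after the start), 66.7% hold AGGAA on either strand, so that its presence sets no promoter apart. A window was given for 6 of the 10 genes, 8 windows in all, of which 7 hold AGGAA. All 8 hold GGAA and GGGA, as do 96.0% and 95.3% of all windows, and 3 hold TGGGAA, the core of sites for the Notch effector RBPJ, as do 25.6% of all windows. The window without AGGAA is that of *Ptgfrn*. TGGGAA lies in a window of *F11r*, of *Cttnbp2nl* and of *Prom1*, and not in that of *Lmcd1*. AGGAA and TGGGAA both contain GGAA, and TGGGAA also contains GGGA. The windows were compared in base content as well. The *Ptgfrn* window has 80.0% G and C and 44 CpG dinucleotides, more than 97.8% of all windows have, and the *Lmcd1* window 62.0% and 12. Over all windows the medians are 52.7% and 7. A match of letters describes the window and is not a measured binding site.

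The gene 5031434C07Rik, a long non-coding RNA gene, lies within the annotated *Lmcd1* gene on the opposite strand. It had values of 9.20 and 9.14 with EtOH and 6.51 and 6.26 with 4OHT. The groups did not overlap and the level fell (log2 fold change −2.78, standard error 0.11, limma adjusted p = 0.00573). Each gene has a probe set of its own. The sources used here do not say which strand the probes read, so that reads of the overlapping transcripts cannot be told apart with certainty. *Grm7*, a glutamate receptor gene and the nearest measured gene on the other side of *Lmcd1*, had a log2 fold change of 0.15 (limma adjusted p = 0.364).

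The other genes with PET and LIM domains, *Prickle1* to *Prickle4* and *Tes*, act in planar cell polarity and at focal adhesions. None of these 5 was called by limma, and 0 had an unadjusted p under 0.05. Their log2 fold changes lay between −0.05 and 0.08. Among the 6 GATA factors, the family of GATA6, none was called by limma and 2 had an unadjusted p under 0.05. These were *Gata3*, at a log2 fold change of −0.22, and *Gata4*, at 0.24. *Gata6* had mean values of 6.17 with EtOH and 6.29 with 4OHT, both below the array medians. *Gata3*, the GATA factor of T cells, had 12.07 and 11.85.

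*Fjx1* encodes four-jointed box kinase 1, the mammalian counterpart of a Golgi kinase that acts on the cadherins Fat and Dachsous in the fly. Its values were 9.24 and 9.62 with EtOH and 8.65 and 8.84 with 4OHT. Both 4OHT arrays lay below both EtOH arrays, but the nearest were only 0.41 apart and the EtOH arrays differed by 0.37. *Fjx1* did not pass the test (log2 fold change −0.69, standard error 0.15, 95% interval −1.09 to −0.29, limma adjusted p = 0.108). It passed when only probe sets with 1 gene symbol were fitted (limma adjusted p = 0.00303), at the same log2 fold change. The difference between *Lmcd1* and *Fjx1* in size of change was not tested.

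Of 9 other measured genes of the Fat and Dachsous pathway and of planar polarity, 1 fell, none rose and 8 did not pass. *Lix1l*, a relative of the Fat pathway gene *Lowfat* of the fly, had values of 9.41 and 9.37 with EtOH and 7.99 and 8.10 with 4OHT (log2 fold change −1.34, limma adjusted p = 0.00952). The arrays of the 2 treatments did not overlap for it. The cadherin genes *Fat1* to *Fat4* and *Dchs1* had log2 fold changes of 0.05 to 0.21 and were dim, with EtOH means of 5.97 to 6.77. The median of these 9 genes was 0.10.

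*Ptgfrn* encodes EWI-F (CD9P-1), an immunoglobulin superfamily protein that binds the tetraspanins CD9 and CD81 in the plasma membrane. Like *Fjx1*, it belongs to the loci that carry H3K27me3 throughout normal T-cell development. Its values were 8.95 and 9.14 with EtOH and 7.79 and 7.94 with 4OHT. The nearest arrays of the 2 treatments were 1.00 apart, and arrays of 1 treatment at most 0.20 apart. *Ptgfrn* fell 2.26-fold (log2 fold change −1.17, standard error 0.11, 95% interval −1.45 to −0.90, limma adjusted p = 0.0181).

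Of 14 other genes of the tetraspanin web and its integrins, 2 fell, 1 rose and 11 did not pass, of which 2 had an unadjusted p under 0.05. The integrin genes *Itga6* (log2 fold change −0.81) and *Itgb1* (−0.68), the chains of a laminin receptor, fell with adjusted p values of 0.0200 and 0.0229 from limma. The tetraspanin gene *Cd37*, which lymphocytes express, rose (log2 fold change 0.75, limma adjusted p = 0.0379). The direct partners of EWI-F did not pass: *Cd81* had EtOH and 4OHT means of 12.31 and 12.35, and *Cd9*, itself a gene the study names for loss of H3K27me3, 7.11 and 7.02. The other EWI family genes were *Igsf3*, with a log2 fold change of −0.32 (limma adjusted p = 0.187), and *Igsf8*, with 0.09 (limma adjusted p = 0.565). The median of the 14 genes was 0.03, as over all named genes.

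*Cd2*, the gene of a T-cell adhesion receptor and the nearest measured gene on the *Ptgfrn* chromosome on 1 side, moved the other way. It had values of 8.01 and 8.06 with EtOH and 10.21 and 10.36 with 4OHT, and rose 4.75-fold (log2 fold change 2.25, limma adjusted p = 0.00559). *Cd101*, on the other side, had a log2 fold change of 0.29 (limma adjusted p = 0.156).

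**Figure D2:**
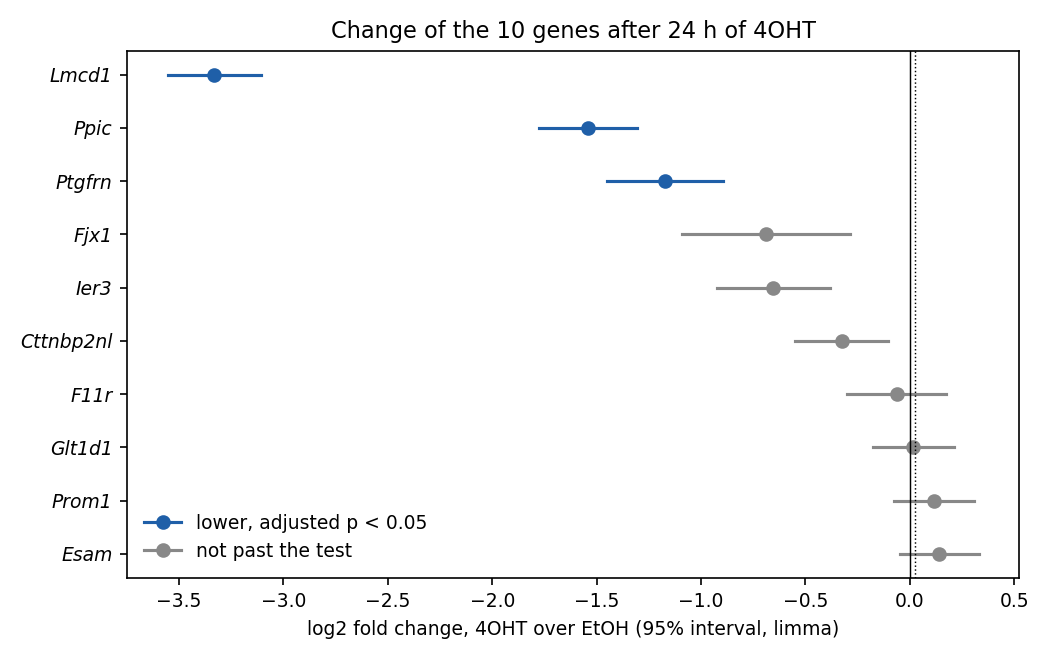
Log2 fold change (4OHT over EtOH, horizontal axis) of the 10 genes with the 95% interval from limma. Blue marks an adjusted p under 0.05 and grey the genes that did not pass; the solid line is 0 and the dotted line the median of all probe sets (0.024), and the intervals of *Fjx1*, *Ier3* and *Cttnbp2nl* lie below 0 although these genes did not pass the adjusted test.

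*Ppic* encodes cyclophilin C, a peptidyl-prolyl isomerase that helps proteins fold in the secretory pathway. The study names it as deregulated, and it belongs to a set of stem cell genes that lymphoid progenitors without Ikaros silence poorly. Its values were 11.10 and 11.13 with EtOH and 9.49 and 9.66 with 4OHT. The nearest arrays of the 2 treatments lay 1.44 apart, and the 4OHT arrays still stood above the array medians. *Ppic* fell 2.91-fold (log2 fold change −1.54, standard error 0.090, 95% interval −1.78 to −1.30, limma adjusted p = 0.00952).

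Cyclophilins are a large family that share the isomerase domain. None of the 16 others measured was called by limma, and 3 had an unadjusted p under 0.05, the mitochondrial *Ppif* (log2 fold change −0.41), *Ppid* (−0.33) and *Ppil2* (−0.25). *Ppia*, the abundant cytosolic cyclophilin A, had values of 13.44 on both EtOH arrays and 13.48 and 13.44 on the 4OHT arrays, and *Ppib*, the cyclophilin of the endoplasmic reticulum, 12.37 on both EtOH arrays and 12.32 and 12.40 on the 4OHT arrays. The treatments overlapped for both. The median log2 fold change of the 16 genes was −0.01. The genes on either side of *Ppic*, *Snx24* and *Prdm6*, had log2 fold changes of 0.02 and 0.00545 (limma adjusted p = 0.957 and 0.981).

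Of the 4 genes of stem and progenitor cells, *Ier3* was lower without passing the test, and *Prom1*, *Esam* and *F11r* lay within 0.15 of 0. *Ier3* encodes IEX-1, a short-lived product of an immediate early gene that acts in cell survival and ERK signalling. Its values were 6.90 and 6.69 with EtOH and 6.08 and 6.20 with 4OHT. The treatments did not overlap and the nearest arrays were 0.49 apart, but all 4 values lay below the array medians. Its log2 fold change was −0.65 (standard error 0.10, 95% interval −0.93 to −0.38, limma adjusted p = 0.0538). It stood beside the threshold: with equal array medians the adjusted p was 0.0480, after another quantile normalization 0.0481, among probe sets with a mean of at least 6 it was 0.0350 and among those with 1 gene symbol 8.37e-04 (limma). It did not pass with an intensity trend (limma adjusted p = 0.0562), with the sample number as a block (0.138), with crossed numbers (0.0516) or without any 1 array (0.118 to 0.219).

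The bases before the *Ier3* start (chr17:35821463-35821712, build GRCm38.p6, plus strand, from RefSeq) hold AGGAA once on each strand, again in capitals, and are shown for comparison with those of *Lmcd1*.
*Ier3*: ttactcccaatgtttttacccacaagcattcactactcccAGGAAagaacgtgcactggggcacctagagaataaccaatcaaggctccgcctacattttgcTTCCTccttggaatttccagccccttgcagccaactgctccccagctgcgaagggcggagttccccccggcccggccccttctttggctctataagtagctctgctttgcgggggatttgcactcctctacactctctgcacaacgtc
The *Ier3* window of 300 bases has 5 GGAA and 5 GGGA, against 1 and 9 in that of *Lmcd1*.

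The other immediate early and feedback genes lay on both sides of 0. Of 24, 1 fell, none rose and 23 did not pass, with 12 of these at an unadjusted p under 0.05 in both directions. The AP-1 gene *Jun* had values of 10.03 and 9.68 with EtOH and 8.45 and 8.21 with 4OHT and fell 2.88-fold (log2 fold change −1.52, limma adjusted p = 0.0223). Among those that did not pass, *Nfkbie* and *Nfkbia*, inhibitors of NF-κB, had log2 fold changes of 1.05 (limma adjusted p = 0.0539) and 0.82 (0.0801), and *Fosl2* one of −0.76 (0.0560). The median of the 24 genes was 0.21. The number called in this list depended on the setting, with 4 lower and 8 higher of all 25 when only probe sets with 1 gene symbol were fitted. *Ddr1*, a collagen receptor kinase gene and the nearest measured gene before *Ier3*, had values of 9.55 and 9.70 with EtOH and 8.85 and 8.82 with 4OHT and fell (log2 fold change −0.79, limma adjusted p = 0.0255). *Flot1*, on the other side, had a log2 fold change of −0.19 (limma adjusted p = 0.318).

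*Prom1* encodes prominin 1 (CD133), a membrane protein with several passes that marks stem cells of many tissues. Its values were 5.38 and 5.44 with EtOH and 5.54 and 5.52 with 4OHT. Both 4OHT arrays were higher, by 0.074 at the nearest, and the gene did not pass the test (log2 fold change 0.12, 95% interval −0.07 to 0.31, limma adjusted p = 0.464). All 4 values lay well below the array medians. Its relative *Prom2* had a log2 fold change of 0.16 (limma adjusted p = 0.433). Of the tweety genes, which encode other membrane proteins with several passes, *Ttyh2* fell from 9.91 and 10.50 to 8.29 and 8.06 (log2 fold change −2.04, limma adjusted p = 0.0249), while *Ttyh1* and *Ttyh3* had log2 fold changes of 0.17 and 0.05 (limma adjusted p = 0.353 and 0.830).

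*Esam* and *F11r* encode immunoglobulin-like adhesion molecules of cell junctions. ESAM is found on endothelial cells, platelets and stem cells, and F11R (JAM-A) also on epithelia and leukocytes. *Esam* had values of 6.41 on both EtOH arrays and 6.58 and 6.52 on the 4OHT arrays. Both 4OHT arrays were thus higher, by 0.11 at the nearest, without passing the test (log2 fold change 0.14, 95% interval −0.05 to 0.33, limma adjusted p = 0.378). *F11r* had values of 6.10 and 5.92 with EtOH and 5.96 and 5.94 with 4OHT, which overlapped (log2 fold change −0.06, 95% interval −0.30 to 0.17, limma adjusted p = 0.750). Both genes were below the array medians on all arrays. Of 7 endothelial markers, none was called by limma and 1 had an unadjusted p under 0.05. That gene, *Pecam1*, which leukocytes also express, had means of 9.51 and 9.89, and the other 6 had EtOH means of at most 6.64.

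Of 13 other measured genes of the JAM and CTX family and its kin, 4 fell, none rose and 9 did not pass, of which 1, the virus receptor gene *Cxadr* (log2 fold change 0.35), had an unadjusted p under 0.05. *Mpzl2*, itself a gene the study names for loss of H3K27me3, had values of 11.33 and 11.19 with EtOH and 8.26 and 8.21 with 4OHT (log2 fold change −3.02, limma adjusted p = 0.00417). *Jaml*, the gene of a leukocyte adhesion molecule that binds CXADR, had 8.85 and 9.12 with EtOH and 7.39 and 7.73 with 4OHT (log2 fold change −1.42, limma adjusted p = 0.0268). For both, the treatments did not overlap. *Mpzl3* (log2 fold change −0.72) and *Mpzl1* (−0.61) fell with adjusted p values of 0.0457 and 0.0375 from limma. *Jam2* and *Jam3*, the closest relatives of *F11r*, had log2 fold changes of 0.12 and 0.19 (limma adjusted p = 0.529 and 0.354).

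Of 19 genes of junction scaffolds and tight junctions, the partners of such adhesion molecules inside the cell, 3 fell, none rose and 16 did not pass, with a median log2 fold change of 0.01. The claudin gene *Cldn12* fell from 8.19 and 8.43 to 7.12 and 6.87 (log2 fold change −1.32, limma adjusted p = 0.0220). *Tjp3* (log2 fold change −0.98) and *Afdn* (−0.79), which encode the scaffolds ZO-3 and afadin, fell with adjusted p values of 0.0223 and 0.0248 from limma. *Tjp1*, which encodes ZO-1, had a log2 fold change of 0.12 (limma adjusted p = 0.494).

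*Cttnbp2nl* and *Glt1d1* are named as H3K27me3 loci of joint Ikaros and Suz12 (a PRC2 subunit) binding without the NuRD complex, not for their mRNA. *Cttnbp2nl* encodes a relative of the cortactin-binding protein CTTNBP2 that associates with striatins, scaffolds of the STRIPAK phosphatase complex. Its values were 7.29 and 7.15 with EtOH and 6.93 and 6.86 with 4OHT. The treatments did not overlap, with 0.23 between the nearest arrays, and the gene did not pass the test (log2 fold change −0.33, standard error 0.085, 95% interval −0.55 to −0.10, limma adjusted p = 0.143). It passed when only probe sets with 1 gene symbol were fitted (limma adjusted p = 0.0285). Of 20 other genes of STRIPAK and cortactin, 1 fell, none rose and 19 did not pass. That gene was *Stk25*, which encodes a kinase of the complex (log2 fold change −0.51, limma adjusted p = 0.0437). The striatin genes *Strn*, *Strn3* and *Strn4* had log2 fold changes of −0.02, −0.16 and −0.10, and *Cttnbp2* one of 0.20 (limma adjusted p = 0.304).

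*Glt1d1* encodes a putative glycosyltransferase. Its values were 5.38 and 5.40 with EtOH and 5.37 and 5.44 with 4OHT. The treatments overlapped, all values lay below the array medians, and the log2 fold change was 0.02 (95% interval −0.18 to 0.21, limma adjusted p = 0.925). Of 9 other glycosyltransferase genes of like name or fold, *Gtdc1* rose from 8.14 and 8.20 to 8.88 and 8.79 (log2 fold change 0.67, limma adjusted p = 0.0297), none fell and 8 did not pass, of which *Alg13* (−0.47, limma adjusted p = 0.0548) and *Glt8d1* (−0.25, limma adjusted p = 0.204) had an unadjusted p under 0.05. The study's examples of loci with and without NuRD stand side by side here, with no test between them. The study mapped NuRD in wild-type thymocytes, and no map of it in ILC87 cells was used here. Those with NuRD, *Fjx1*, *Ptgfrn* and *Ctnna1*, had log2 fold changes of −0.69, −1.17 and −0.56. Those without, *Cttnbp2nl*, *Glt1d1*, *Cd9* and *Ctnnd1*, had −0.33, 0.02, −0.09 and −2.56. Loci without NuRD in thymocytes thus held the widest change of the 7, *Ctnnd1*, and the smallest ones, *Cttnbp2nl*, *Glt1d1* and *Cd9*. *Ctnnd1*, the gene of p120 catenin, had values of 9.98 and 10.12 with EtOH and 7.50 and 7.46 with 4OHT and fell (limma adjusted p = 0.00418).

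**Figure D3:**
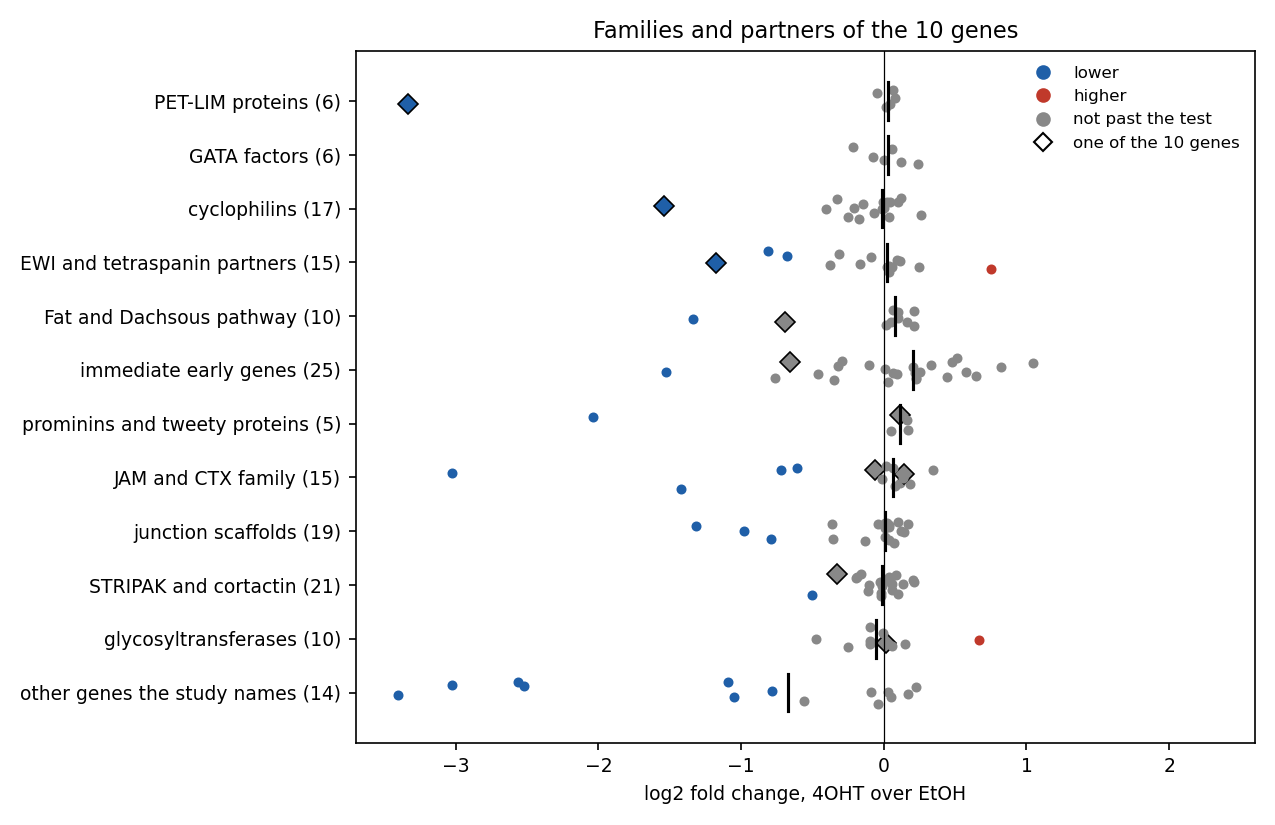
Log2 fold change (4OHT over EtOH, horizontal axis) of the families and partners of the 10 genes, with the number of measured genes in brackets. Points are genes (blue lower, red higher, grey not past the test; vertical position within a row has no meaning), diamonds are the 10 genes and black lines the medians of all genes in a row; the medians of the first 11 rows lie between −0.05 and 0.20, and that of the other genes the study names at −0.67.

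The study names further genes for loss of H3K27me3 or deregulation in Ikaros-deficient thymocytes, of which 14 could be named on the arrays. Of these, 7 fell, none rose and 7 did not pass, with a median log2 fold change of −0.67, against 3 of 10 and −0.49 for the genes described here. Of those that did not pass, *Ctnna1* (log2 fold change −0.56) and *Tbx21* (0.23) had an unadjusted p under 0.05. The difference between these groups was not tested. *Hes1*, a direct Notch target, fell (log2 fold change −0.78, limma adjusted p = 0.0213). *Rhoj* and *Socs2*, the stem cell genes named together with *Ppic*, both fell. *Rhoj*, a small GTPase gene, had values of 7.72 and 7.64 with EtOH and 6.64 and 6.63 with 4OHT (log2 fold change −1.05, limma adjusted p = 0.0123), and *Socs2*, a cytokine signalling inhibitor gene, 8.70 and 8.49 with EtOH and 6.12 and 6.03 with 4OHT (−2.52, limma adjusted p = 0.0063). All 3 genes of this trio were thus lower on every 4OHT array than on every EtOH array, a separation that 24.5% of all named genes show. Of the stem cell genes named together with *Ier3*, *Prom1*, *Esam* and *F11r*, *Alcam* fell (log2 fold change −1.09, limma adjusted p = 0.0169), while *Cd9* and *Vwf* had log2 fold changes of −0.09 and 0.17 (limma adjusted p = 0.597 and 0.300).

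Across the 10 genes, both 4OHT arrays lay below both EtOH arrays for 6, above them for 2 and overlapped for 2. Of all named genes 24.5% and 32.1% were separated downwards and upwards. A decrease of at least 2-fold that passed the test was found for 3 of the 10, and for 0.978% of all named genes. Of 20 neighbours on the chromosome, the nearest measured gene on each side of the 10, 5031434C07Rik and *Ddr1* fell, *Cd2* rose and 17 did not pass. Among all named genes 2.99% were called lower and 1.23% higher. The gene 5031434C07Rik lies within the annotated *Lmcd1* gene and does not flank it.

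**Figure D4:**
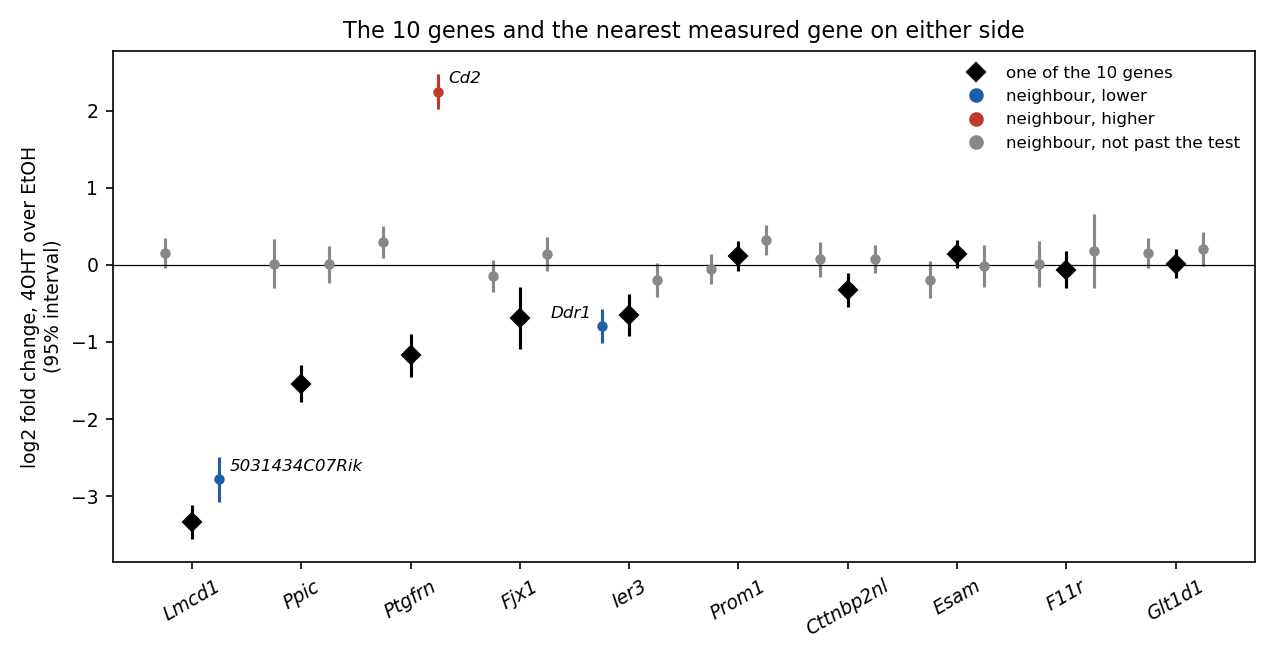
Log2 fold change (4OHT over EtOH, vertical axis) of the 10 genes (black diamonds) and of the nearest measured gene before (left) and after (right) each on the chromosome, with 95% intervals from limma. Blue neighbours were lower, red higher and grey did not pass; 3 of 20 were called, 5031434C07Rik at −2.78, *Ddr1* at −0.79 and *Cd2* at 2.25.

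The genes most like each called gene were found by the distance between their values on the 4 arrays, each gene centred on its own mean. With 4 arrays this compares the size of the change and the spread of the replicates and nothing else. *Lmcd1* was nearest to *Scn4b* (distance 0.19), which encodes a sodium channel subunit and is a further gene of the H3K27me3 list, and to *Gfra2* (0.29), a GDNF family receptor gene. *Scn4b* had values of 10.46 and 10.70 with EtOH and 7.19 and 7.16 with 4OHT. *Ppic* was nearest to *Rtl8c* (0.065) and the mast cell receptor gene *Milr1* (0.087), with log2 fold changes of −1.55 and −1.53. *Ptgfrn* was nearest to *Eng*, the endoglin gene (0.057), and to the sterol transporter gene *Abcg1* (0.079), with log2 fold changes of −1.21 and −1.18. *Eng* had values of 7.99 and 8.23 with EtOH and 6.85 and 6.95 with 4OHT, and fell with an adjusted p of 0.0182 from limma.

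The calls depended on the arrays and on the fit. *Lmcd1* passed without 4OHT replicate 1 and without 4OHT replicate 2, as did *Ppic*. Neither passed without EtOH replicate 1 or without EtOH replicate 2, fits in which limma called no probe set. Every fit with 1 array left out has 1 residual degree of freedom. *Ptgfrn* did not pass without any 1 array (limma adjusted p = 0.0551 to 0.147). The sizes moved little in these fits, with log2 fold changes of −3.41 to −3.26 for *Lmcd1*, −1.63 to −1.45 for *Ppic* and −1.27 to −1.08 for *Ptgfrn*. Of the calls in the families, those of the tetraspanin web, *Ttyh2*, *Stk25* and *Gtdc1* were lost without any 1 array, the 4 of the JAM and CTX family became 1 without either 4OHT array, the 3 of the junction scaffolds became 2 without 4OHT replicate 1 and 0 without 4OHT replicate 2, the count of immediate early genes went from 1 to 0 without 4OHT replicate 2, and that of the Fat and Dachsous genes was 1 without either 4OHT array and 0 without either EtOH array. The 7 further genes the study names became 5 and 4 without 4OHT replicates 1 and 2. Fitted over probe sets with 1 gene symbol alone, *Fjx1*, *Ier3* and *Cttnbp2nl* passed as well, so that 6 of the 10 genes were lower. In that fit 1868 of 21789 probe sets were lower in all, against 772 of all 35556 in the main fit.

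**Figure D5:**
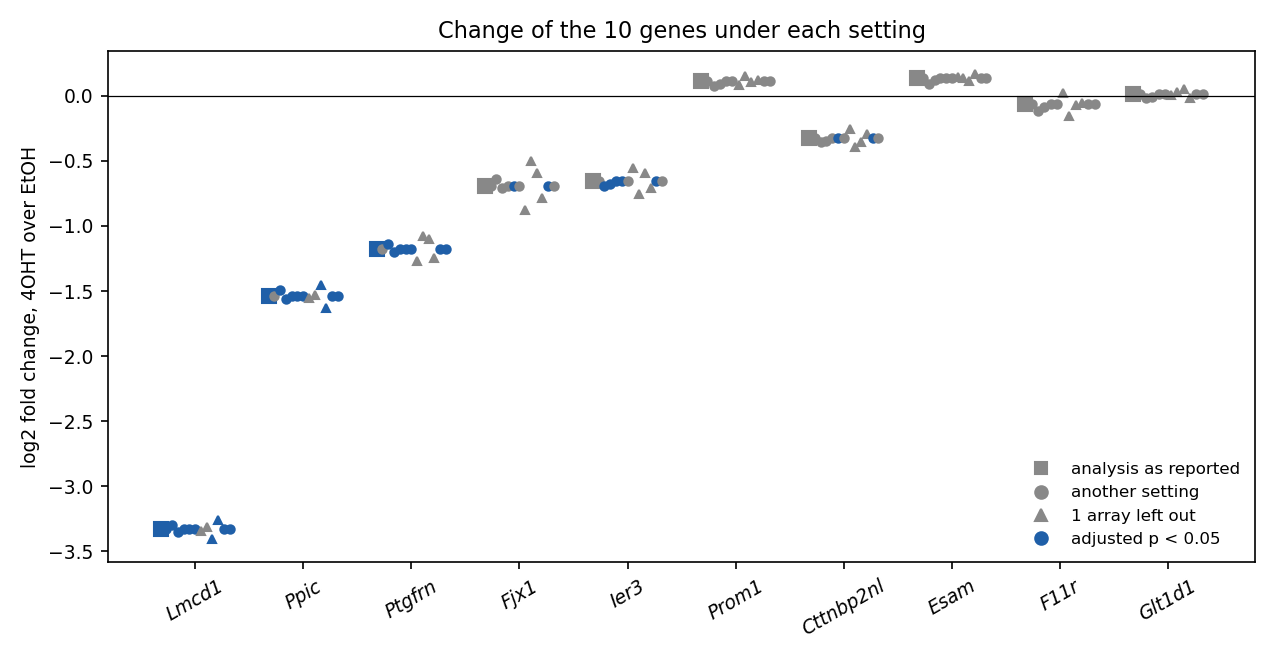
Log2 fold change (4OHT over EtOH, vertical axis) of the 10 genes as reported (squares), under other settings (circles) and with 1 array left out (triangles). Blue marks an adjusted p under 0.05 in that fit and grey the rest; the values of *Lmcd1* stay between −3.41 and −3.26, while those of *F11r* and *Glt1d1* lie on both sides of 0.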

How the data were processed

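RNA of 4 samples was measured on Affymetrix Gene ST 1.0 arrays. Log2 values of 35556 probe sets were deposited by the authors, made with RMA in Affymetrix Expression Console 1.1 by the submitters' processing notes. RMA gives all arrays 1 distribution, which hides a change shared by most genes, and shrinks differences where probes are dim. No source used here gives the genome build of the array annotation.

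Treatments were compared with limma 3.58.1 under R 4.3.3 (lmFit, then eBayes; two-sided, no filter, no block; 2 residual and 2.66 prior degrees of freedom). Probe sets with 1 symbol in the array annotation (21789) were named, with 21698 symbols brought up to date by Entrez number through RefSeq (GRCm38.p6); each of the 10 genes has 1 such probe set. For other genes the probe set with the highest mean was taken. Gene lists (families, partners, markers) are described by counts and medians. Genes to be named were the 10 genes, called genes of each list, the 2 genes most like each called gene (gene models and small RNAs left out) and the nearest measured neighbours. The genes and lists were chosen with earlier results of these data known. The fits were tested on simulated data. Promoter windows are from RefSeq. The alternatives were a replicate block, other normalizations, a filter on dim probe sets, probe sets with 1 symbol alone, an intensity trend, gene means, single arrays left out and stricter thresholds. The number of arrays limits the precision.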

Additional observations from a re-analysis of the deposited data

How the results depend on the processing

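The count of 3 genes lower and 0 higher among the 10 became 1 lower (*Lmcd1*) with the sample number as a replicate block (limma). It became 6 lower with the 21789 probe sets of 1 gene symbol alone and 6 lower with gene means. For gene means no count over all genes was made to set beside it. No gene of the 10 was called higher in any of these fits. Over all probe sets, the 772 lower and 351 higher calls became 32 and 10 with the replicate block, 1868 and 1070 with probe sets of 1 gene symbol, 74 and 21 at an adjusted p under 0.01, and 249 and 100 with a change of at least 2-fold required; with 1 array left out they ranged from 0 to 360 lower and 0 to 94 higher. Without EtOH replicate 1 and without EtOH replicate 2 no probe set was called by limma, and 4902 and 4739 had an unadjusted p under 0.05. The cause of these shifts was not tested. Samples with the same number did not deviate together (r = −0.13 across probe sets), but such a correlation cannot exclude that the numbers pair the samples. With the numbers crossed, 552 probe sets were lower and 226 higher, and 3 of the 10 genes were lower. The crossing was chosen after seeing the data. The log2 fold change of *Glt1d1* changed sign after another quantile normalization (−0.017), with equal array medians (−0.0050) and without 4OHT replicate 2 (−0.019; −0.019 to 0.053 with 1 array left out), and that of *F11r* without EtOH replicate 1 (0.025; −0.15 to 0.025). The other 8 genes kept their direction in all fits made. At 2 arrays a treatment and without detection calls, a lower level of a gene already at background would go unseen.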
